A study of Mus musculus with 7 samples.

Results

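The genes described here make up the machinery that copies DNA and the enzymes that supply its nucleotides, measured in mouse uterus over a day after a single dose of dihydrotestosterone (DHT), an androgen that cannot be converted to estrogen. They are 29 genes chosen by name for these functions, and every probe set of the array that names one of them alone was taken on all 7 arrays. Of the 29, 28 had a probe set of their own, 36 probe sets in all, out of 8251 genes with such a probe set on the array. The remaining gene, Tyms, which encodes the enzyme that makes thymidylate, is matched only by probe sets that name its pseudogene as well, and no value is given for it.

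The groups were uteri of C57BL/6 females, 10 to 11 weeks old by the label, taken 1, 3, 6, 12, 18 or 24 h after 0.1 mg DHT per mouse under the skin, and uteri taken 24 h after an injection of vehicle. All mice, the vehicle group included, had lost their ovaries 7 days earlier. Tissue was pooled within a group and 1 Affymetrix U74Av2 array was run per pool, so there are no replicates and each time is described, not tested. The protocols name 10 mice without saying how many went into a pool, give the age of 10 to 11 weeks for arrival as well as for surgery although 4 weeks of acclimation lay between, and describe a 0.5 h group in place of the 18 h group that the array titles carry. The titles were followed for the DHT arrays. The vehicle array carries the title 0 h, and the 24 h given for it is its time since injection, not its title. The vehicle pool matches the 24 h DHT pool in time since injection and no other. At 1 to 18 h the effect of DHT and that of the injection or of the hour of day therefore cannot be told apart.

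Before a cell divides it copies its genome in S phase. In G1 the origin recognition complex, with Orc1, and the loader Cdc6 place rings of Mcm2 to Mcm7 on DNA. Cdc45 joins them later, as S phase begins, to form the working helicase. DNA polymerase alpha and primase start each strand, the clamp Pcna, loaded by the RFC complex, holds later polymerases in place, and Fen1 and Lig1 finish the pieces of the lagging strand. Ribonucleotide reductase, thymidine kinase and dUTPase supply the building blocks. Most of these genes are transcribed at the border of G1 and S, when E2F factors are released from the retinoblastoma proteins, and in the uterus of ovariectomized rodents sex steroids are known to set the cell cycle in motion.

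Values are signals of the MAS5 program on a linear scale. A signal lower than the floor of 145.9, set at the 40th percentile over the table, was raised to it before log2 was taken, and a gene was kept where its mean log2 signal lay above the floor. This filter kept 21 of the 28 genes, and 5658 genes in all, and it uses the mean over all 7 arrays. Where a gene had several probe sets, the brightest stood for it. Of the 8 other probe sets, 2 passed the filter (of Mcm3 and Pola2). The other 6 (of E2f1, Lig1, Mcm5, Rfc1, Rrm1 and Tk1) were under the floor on all 7 arrays. Fold changes and ratios are to the vehicle array unless stated otherwise, and levels of different genes are not compared, since each probe set has its own response.

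The 12 h array stood out for these genes. Of the 21 genes above the filter, 20 had a higher signal at 12 h than on vehicle, and the median log2 ratio was 0.61, while 51.1% of all 5658 genes were higher and their median was 0.01. At 1, 3, 6 and 18 h 10, 13, 13 and 19 of the 21 were higher, against 50.7%, 47.4%, 49.7% and 48.7% of all genes. The median over the 21 genes was 0.00, 0.10, 0.12, 0.61, 0.40 and -0.02 at 1, 3, 6, 12, 18 and 24 h, and that over all genes lay between -0.01 and 0.01 at every time. At 24 h, where the vehicle pool is matched in time, 10 of the 21 genes were higher than vehicle, against 51% of all genes. The signal was highest at 12 h for 15 of the 21 genes, at 18 h for 5 and at 3 h for 1, and on no other array. Among all genes 16.1% were highest at 12 h, 11.7% at 18 h and 14.9% at 3 h, with 15.7% on vehicle and 14%, 14.9% and 12.7% at 1, 6 and 24 h.

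**Figure D1:**
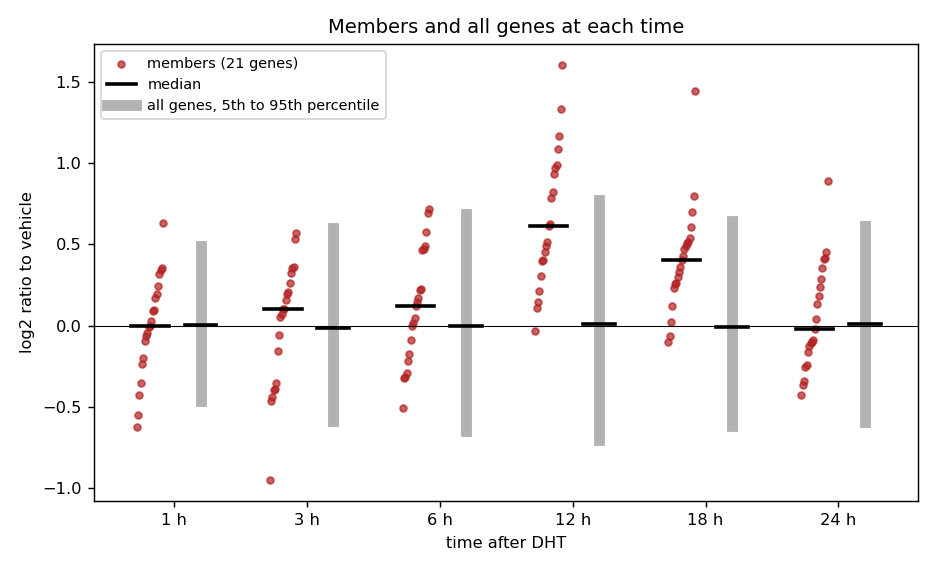
Log2 ratio to vehicle (vertical axis) at each time after DHT. Red points are the 21 genes above the filter with their median as a black line, and grey bars span the 5th to 95th percentile of all 5658 genes with their median. At 12 h 9 of the 21 points lie above the 95th percentile of all genes, 0.77, and at 24 h 1 does.

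**Figure D2:**
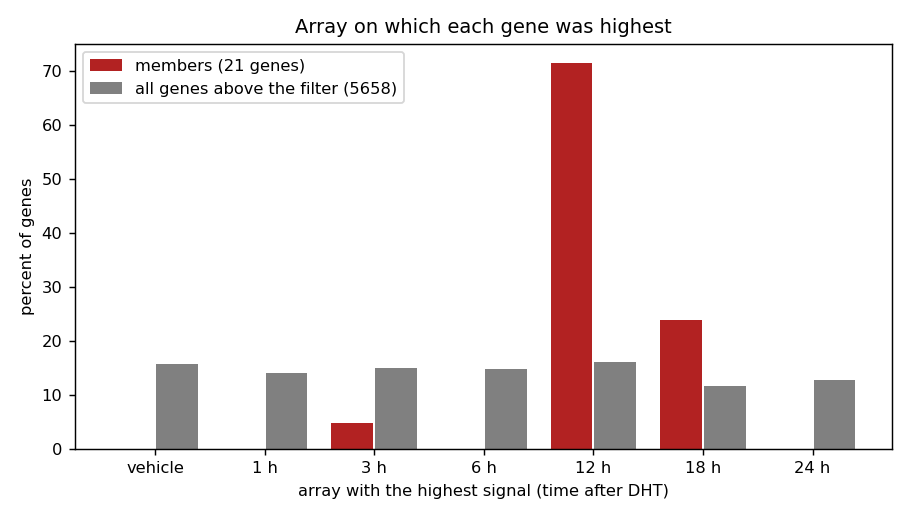
Share of genes, in percent, whose signal was highest on each of the 7 arrays, for the 21 replication and nucleotide genes (red) and for all 5658 genes (grey). The 12 h array holds 71.4% of the red set and 16.1% of the grey.

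A fold of 2 with a signal of at least 291.8 on the brighter array was reached by 4 of the 21 genes at 12 h (Mcm3, Mcm5, Rrm1 and Rrm2), where 2.01% of all genes reached it, and by 1 at 18 h (Rrm1), where 1.45% did. None of the 21 reached it upward at 1, 3, 6 or 24 h, where 0.46%, 1.31%, 1.36% and 0.99% of all genes did, and by the brightest probe set none was at least 2-fold lower at any time, where 0.477%, 0.76%, 1.22%, 1.27%, 1.04% and 0.866% of all genes were, from 1 to 24 h. The count of 4 at 12 h was 1 where all probe sets of a gene were averaged and 7 with the floor at the 20th percentile. That lower floor also lowers the brightness needed and keeps more probe sets. At 1.5-fold, 11 of the 21 were higher at 12 h, where 8.27% of all genes were, and 3 at 18 h, where 5.3% were. At 1, 3, 6 and 24 h the counts were 1, 0, 2 and 1, against 2.39%, 4.42%, 6.5% and 4.77% of all genes. With the same brightness rule Pcna at 1 h was the only case of 1.5-fold lower, where 2.14% of all genes were lower by that much, and 3.99%, 5.6%, 6.66%, 4.81% and 4.37% were from 3 to 24 h. Pola1, at 0.52-fold or less at 3 h, is not counted because neither of its signals reached 291.8.

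The step between neighbouring arrays does not involve the vehicle pool. From 6 to 12 h the signal was higher at 12 h for 21 of the 21 genes, with a median log2 difference of 0.46, and 50.1% of all genes were higher. Of these, 9 were at least 1.5-fold higher at 12 h than at 6 h, a size that 2.7% of all genes reached. Steps of 1.5-fold were counted, here and below, only where the brighter of the arrays compared had a signal of at least 291.8. After 12 h the direction was the other way. A gene highest at 12 h is lower at 6, 18 and 24 h by that fact alone, as for the 15 counted so above. The comparisons with 12 h thus restate that single array in part. At 18 h 5 of the 21 were higher than at 12 h (44.8% of all genes) and 3 at least 1.5-fold lower (2.83%). At 24 h 1, Rfc2, was higher than at 18 h (52%), and 3 were at least 1.5-fold lower (2.72%). Only 2 of the 21, Chaf1b and Pola2, were higher at 24 h than at 12 h (49.2% of all genes). The median log2 difference was -0.56, and 9 were at least 1.5-fold lower at 24 h (3.18% of all genes). Rpa2, at 0.55-fold from 12 to 24 h, is not in these counts because none of its signals reached 291.8. In pooled tissue more cells in S phase and more of each mRNA per cell cannot be told apart.

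Some of the measures of the arrays themselves differed at 12 h. The 9 probe sets for spiked-in bacterial controls had a mean log2 ratio to vehicle of -0.02, 0.57, -0.26, -0.36, 0.11 and 0.45 at 1, 3, 6, 12, 18 and 24 h, and 6 controls that read the antisense strand of the actin and Gapdh genes were at 0.04, 0.32, -1.02, -1.23, 0.42 and -0.59. Both were lowest at 12 h, with 6 h close to it, and their part in the results was not tested. Scaling by quantiles or by the median left 4 genes at least 2-fold higher at 12 h. The deposited array medians already lay between 227.4 and 237.0, so this scaling says little about differences between arrays. Markers of the uterus were present, with all 8 smooth muscle genes, all 10 epithelial genes and 11 of 12 stromal genes above the filter. The stromal gene below it was Vim, which was under the floor on all 7 arrays. The summed signal of the 8 smooth muscle genes was 38448, 37609, 39793, 49148, 58461 and 65060 from 1 to 24 h, against 41390 on vehicle, so it was highest at 24 h, when the replication genes were near vehicle. The stromal sum was 75484 at 24 h, against 49811 on vehicle, with members on both sides of vehicle. The collagen genes Col1a1, Col3a1 and Col1a2 had log2 ratios of 1.30, 1.36 and 0.96 at 24 h, while Pgr and Pdgfrb were at -0.67 and -0.48, and the median over the 11 genes was 0.25 at 24 h and 0.05 at 12 h. The epithelial sum lay between 14331 and 16579 on all arrays. Of 7 T cell genes 5 were under the floor on every array, Cd3d, Cd3e, Cd3g and Cd8a among them. The other 2, Cd4 and Thy1, passed the filter, with signals of 164 to 327 and 1631.8 to 2521.3. The sum of 5 B cell genes was 619.4 at 12 h and 961.8 on vehicle, with 2 of them, Cd79b and Cd22, under the floor on every array. Cd79a was at 66.4 at 12 h and 264.1 on vehicle, Ms4a1 at 323 and 366.3, and Blk at 175.4 and 217.2. The part of these cell types in the results was not tested.

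Origin licensing and the helicase come first in the process. Cdc6, which loads the MCM ring, had a signal of 236.4 on vehicle and 185.1, 247.8, 326.9, 418.2, 256.6 and 222.4 at 1, 3, 6, 12, 18 and 24 h. It was 1.77-fold above vehicle at 12 h 1.09-fold at 18 h and 0.94-fold at 24 h.

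Mcm3, a subunit of that ring, was at 537.5 on vehicle and at 605.5, 621.3, 800.4, 1208.4, 755.7 and 609.2 at the 6 times, 2.25-fold above vehicle at 12 h. Its other probe set gave 428.8 at 12 h, 1.56-fold, and 196.5 at 24 h, against 275.2 on vehicle. Both probe sets were highest at 12 h, but at 24 h they lay on opposite sides of vehicle (log2 ratios of 0.18 and -0.49).

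Mcm5, another subunit, was at 1285.6 on vehicle and at 1276.3, 1538.4, 1801.2, 2731.7, 2089.3 and 1266.1 at the 6 times. Each array from 3 to 12 h was above the one before it. Mcm5 was 2.12-fold above vehicle at 12 h and 1.63-fold at 18 h, and 0.98-fold at 24 h.

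The other subunits lay closer to vehicle. Mcm4 was at 867.0 at 12 h, against 633.9 on vehicle (log2 ratio 0.45), and lower than vehicle at 24 h (-0.43). Mcm7 was at 1410.9 at 12 h, against 1069.5 on vehicle (0.40). Mcm2 was the exception among the 21 genes at 12 h, with 737.2 against 754.2 on vehicle (-0.03), and its signal at 18 h, its highest, was 764.6. Cdc45, which joins the ring to form the active helicase, was at 402.3 at 3 h, its highest, 389.7 at 12 h and 246.0 at 6 h, against 277.6 on vehicle. Mcm6 and Orc1 were under the floor on all 7 arrays, with signals of 11.4 to 84.4 for Mcm6 and 99.2 to 123.2 for Orc1, so these arrays give no time course for them. Among the 7 genes of this role above the filter, 6 were higher than vehicle at 12 h with a median log2 ratio of 0.49, and 2 were at 24 h with a median of -0.09.

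**Figure D3:**
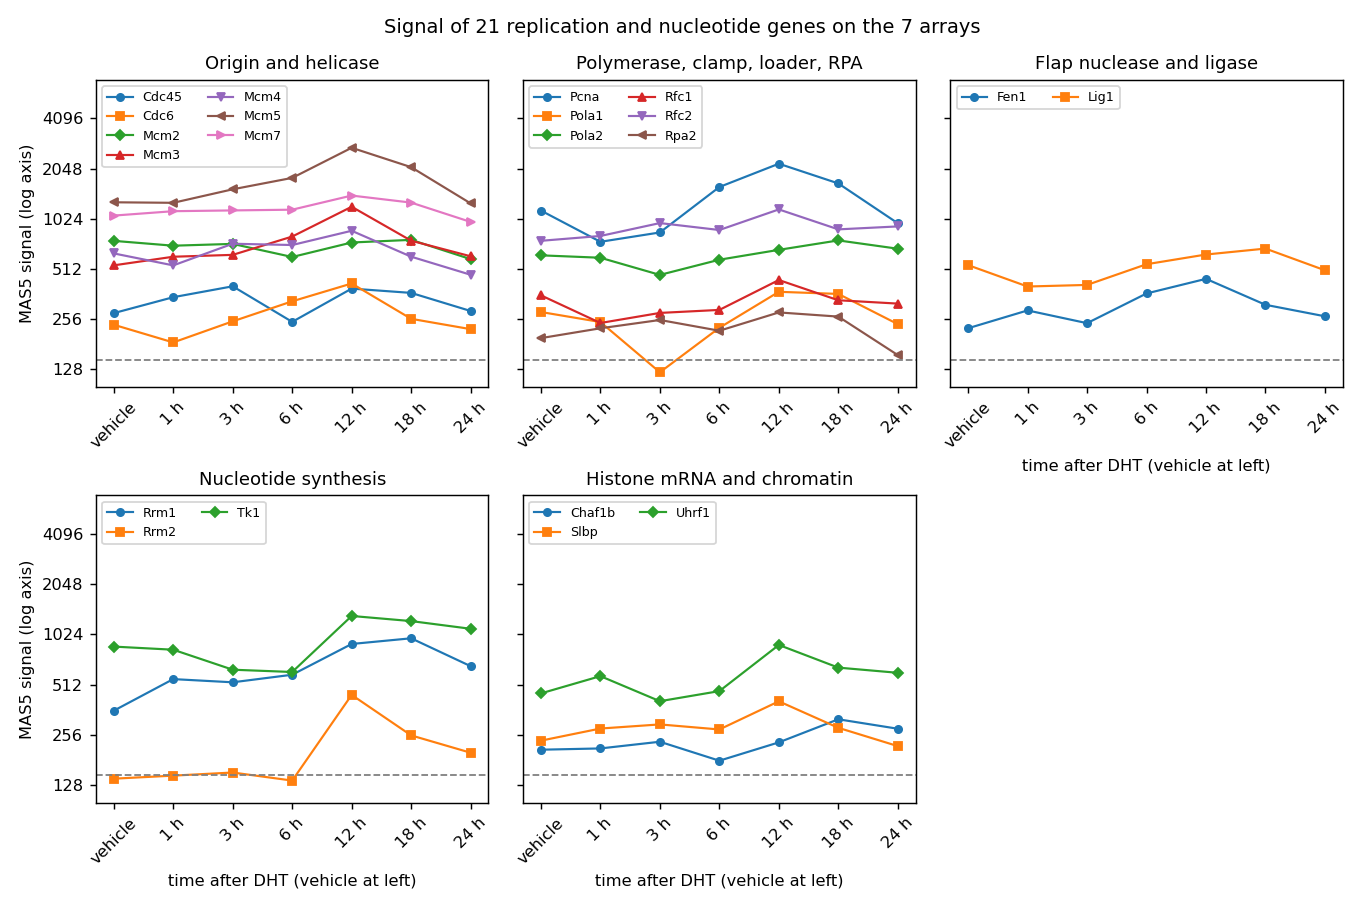
MAS5 signal (vertical log axis) of each of the 21 genes on the vehicle array and at 1 to 24 h after DHT, in panels by role. The dashed line is the floor of 145.9, and a line joins the values of 1 gene on single arrays, with no error since each group had 1 array. Mcm5, Pcna, Mcm3, Rrm2 and Uhrf1 are each highest at 12 h.

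Several genes of polymerase alpha, the clamp and its loader were below vehicle before 12 h. Pcna, the sliding clamp, was at 1146.6 on vehicle and at 744.4, 847.1, 1587.9, 2191.6, 1668.7 and 962.0 at the 6 times. It was thus below vehicle at 1 and 3 h (0.65-fold at 1 h), 1.91-fold above it at 12 h and below it again at 24 h.

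Pola1, the catalytic subunit of polymerase alpha, was at 122.5 at 3 h, which is under the floor, and at 372.8 and 362.1 at 12 and 18 h, against 281.9 on vehicle. Its log2 ratio of -0.95 at 3 h is therefore a bound, and its ratio at 12 h was 0.40. Pola2, the regulatory subunit of the same enzyme, was at 471.0 at 3 h and 758.8 at 18 h, against 617.3 on vehicle. Its other probe set went another way, with 128.1, 185.8, 298.8 and 123.2 at 1, 3, 12 and 24 h, against 485.1 on vehicle. It was more than 2-fold lower at 1, 3 and 24 h (0.38-fold at 3 h, and 0.30-fold or less at 1 and 24 h, where it was under the floor), so the 12 h value of Pola2 has no common direction across its probe sets.

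Rfc2, a subunit of the clamp loader, was at 754.6 on vehicle and at 806.8, 964.4, 876.2, 1164.7, 884.0 and 920.8 at the 6 times, 1.54-fold above vehicle at 12 h. Rfc1, the large subunit of the loader, was below vehicle at 1, 3 and 6 h (log2 ratios of -0.55, -0.35 and -0.29), above it at 12 h (0.31) and below it at 18 and 24 h (-0.10 and -0.17). Rpa2, of the complex that covers single-stranded DNA, was at 280.3 at 12 h and 155.4 at 24 h, against 196.5 on vehicle. Of this group of 6 genes above the filter, all 6 were above vehicle at 12 h (median log2 ratio 0.46), and 2 were at 3 h (median -0.37).

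The primase genes Prim1 and Prim2 and the loader gene Rfc4 did not pass the filter. Prim1 was above the floor only at 18 h (151.3, with 62.5 on vehicle), Prim2 only at 12 and 18 h (191.1 and 159.4, with 117.6 on vehicle), and Rfc4 only at 12, 18 and 24 h (182.0, 162.4 and 166.3, with 85.2 on vehicle). These readings near the floor are descriptions of single dim signals and enter no count.

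Fen1, the nuclease that trims lagging strand pieces, was at 225.2 on vehicle and at 288.2, 241.6, 364.3, 446.0, 311.5 and 265.7 at the 6 times. It was above vehicle on all 6 DHT arrays and 1.98-fold above it at 12 h. Lig1, the ligase that seals those pieces, was below vehicle at 1 and 3 h (401.1 and 410.0, with 539.2 on vehicle) and highest at 18 h (677.7, log2 ratio 0.33).

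Both subunits of ribonucleotide reductase had the 12 h ratios farthest from vehicle among the 21 genes, while Tk1, the third gene of nucleotide supply above the filter, was at the median of the 21 (0.61). Rrm2, the small subunit of ribonucleotide reductase whose amount is tied to S phase, was at 139.2 on vehicle, under the floor, and at 145.2, 151.6, 135.6, 443.5, 253.3 and 199.3 at the 6 times. It was at least 3.04-fold above the floor value of vehicle at 12 h and at least 1.74-fold at 18 h. All 3 late arrays (12, 18 and 24 h) lay above all 3 early ones (1, 3 and 6 h), which were at or about the floor.

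Rrm1, the large subunit of the same enzyme, behaved differently in time. It was at 356.3 on vehicle and at 551.7, 527.8, 586.0, 896.7, 970.0 and 659.7 at the 6 times, so it was 1.55-fold above vehicle already at 1 h and highest at 18 h, at 2.72-fold. It was above vehicle by at least 1.48-fold on every DHT array, the 24 h array with its matched vehicle included (1.85-fold). These values are from its brighter probe set. The other probe set of Rrm1, with signals of 8.3 to 35.5, was under the floor on all 7 arrays.

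Tk1, the thymidine kinase of dividing cells, was at 864.8 on vehicle and at 828.3, 628.2, 608.7, 1320.9, 1230.5 and 1106.2 at the 6 times. Its signals at 12, 18 and 24 h lay above vehicle and those at 1, 3 and 6 h below it. It was 2.17-fold higher at 12 h than at 6 h. Dut, which encodes dUTPase, was above the floor only at 1 h (195.0) and under it on the other 6 arrays, with 38.5 on vehicle, so it has no time course here.

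The last group holds genes that act around the fork. Uhrf1, which brings the maintenance DNA methyltransferase to newly copied DNA, was at 452.8 on vehicle and at 574.8, 406.4, 467.3, 884.6, 646.6 and 601.9 at the 6 times, 1.95-fold above vehicle at 12 h. Slbp, which binds the stem loop of histone mRNA, was at 235.5 on vehicle and at 278.5, 294.8, 274.9, 405.8, 281.3 and 218.4, 1.72-fold at 12 h. Chaf1b, a subunit of the factor that places histones on new DNA, was at 207.8 on vehicle and at 211.5, 232.0, 178.5, 230, 316.5 and 277.7. Unlike the first 2, Chaf1b was highest at 18 h (1.52-fold). E2f1, the transcription factor that drives many of these genes, gave 169.9 at 12 h, its highest, against 62.7 on vehicle, on its brighter probe set, which was above the floor only at 1 and 12 h. Its other probe set was under the floor on all arrays.

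**Figure D4:**
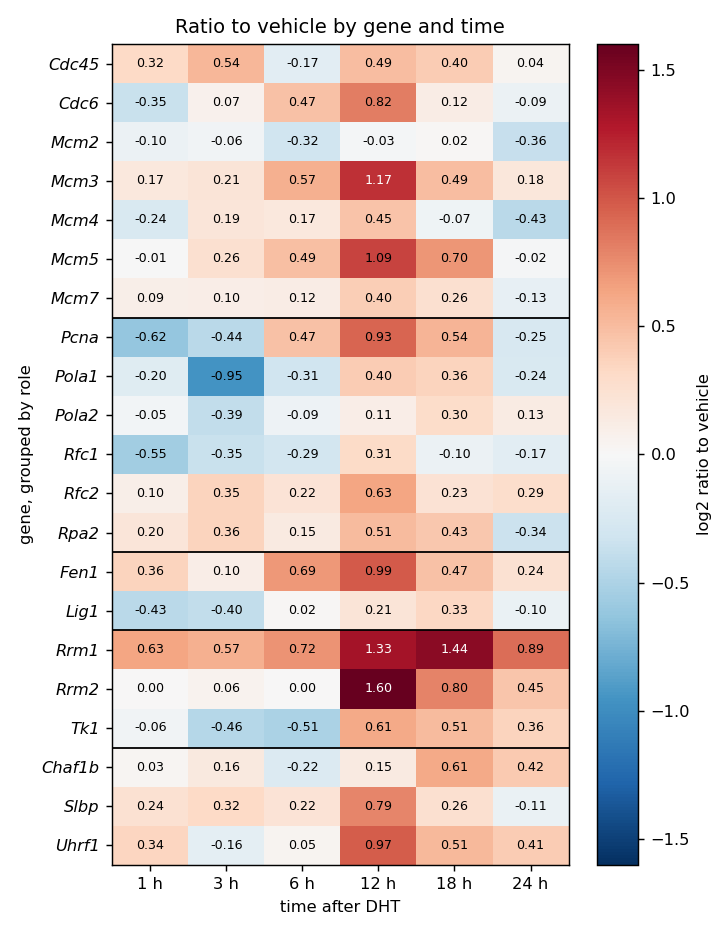
Log2 ratio to vehicle of the 21 genes (down the page, in blocks by role) at each time after DHT (across), with the value in each cell and red for higher than vehicle. The 12 h column is above 0 for all genes but Mcm2 (-0.03), and the 24 h column is above 0 for 10.

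Regions upstream of the gene starts are shown for the 4 genes that reached 2-fold at 12 h and for Cdc6 and Uhrf1, the other genes with all signals given that hold an E2F-type match, to let the letters that E2F and NF-Y factors are known to bind be seen in place. They are the 250 bases before the start in RefSeq's annotation of GRCm38.p6, 5′ to 3′ along the gene. Capitals mark a match to TTTGGCGC, TTTCGCGC, TTTCCCGC or TTTGCCGC, here called E2F-type, or to CCAAT, searched on both strands, so a match on the opposite strand appears as its reverse complement, such as ATTGG. For Uhrf1 the second of 2 annotated starts is shown. The first holds 1 CCAAT match and no E2F-type match.
Mcm5, chr8:75109259-75109508, plus strand: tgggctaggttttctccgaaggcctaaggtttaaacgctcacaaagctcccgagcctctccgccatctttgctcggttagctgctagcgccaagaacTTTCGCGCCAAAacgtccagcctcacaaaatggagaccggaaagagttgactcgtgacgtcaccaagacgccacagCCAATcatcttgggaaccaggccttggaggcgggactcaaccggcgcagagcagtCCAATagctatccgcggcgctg
Mcm3, chr1:20820313-20820562, minus strand: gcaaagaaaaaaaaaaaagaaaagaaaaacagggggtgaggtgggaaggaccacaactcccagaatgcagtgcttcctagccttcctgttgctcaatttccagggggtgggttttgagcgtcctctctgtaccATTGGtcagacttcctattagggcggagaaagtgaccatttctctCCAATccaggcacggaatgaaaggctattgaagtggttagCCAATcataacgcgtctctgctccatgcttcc
Rrm1, chr7:102441445-102441694, plus strand: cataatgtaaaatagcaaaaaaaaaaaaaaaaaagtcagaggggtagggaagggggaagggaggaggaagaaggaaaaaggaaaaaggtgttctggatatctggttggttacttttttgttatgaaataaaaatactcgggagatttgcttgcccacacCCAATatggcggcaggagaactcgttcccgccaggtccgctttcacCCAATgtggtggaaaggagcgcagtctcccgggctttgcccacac
Rrm2, chr12:24708004-24708253, plus strand: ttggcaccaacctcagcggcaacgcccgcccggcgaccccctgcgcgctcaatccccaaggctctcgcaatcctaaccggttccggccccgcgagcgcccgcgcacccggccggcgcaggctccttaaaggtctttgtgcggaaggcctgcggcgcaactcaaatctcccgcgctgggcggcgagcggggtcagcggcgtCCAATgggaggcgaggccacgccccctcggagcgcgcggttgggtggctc
Cdc6, chr11:98907901-98908150, plus strand: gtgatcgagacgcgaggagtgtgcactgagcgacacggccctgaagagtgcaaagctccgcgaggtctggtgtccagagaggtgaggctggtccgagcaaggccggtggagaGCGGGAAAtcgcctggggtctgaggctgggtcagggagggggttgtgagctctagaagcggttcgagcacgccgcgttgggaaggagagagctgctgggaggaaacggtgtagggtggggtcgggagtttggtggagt
Uhrf1, chr17:56304063-56304312, plus strand: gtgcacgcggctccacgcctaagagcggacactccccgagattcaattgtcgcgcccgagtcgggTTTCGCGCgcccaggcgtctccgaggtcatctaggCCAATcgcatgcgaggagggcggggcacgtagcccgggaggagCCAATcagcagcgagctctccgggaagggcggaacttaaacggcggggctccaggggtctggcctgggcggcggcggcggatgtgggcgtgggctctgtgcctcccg
In Mcm5 2 E2F-type matches on opposite strands overlap, from 153 to 142 bases before the start, and 2 CCAAT matches lie nearer to it. Mcm3, Rrm1 and Rrm2, the other genes that reached 2-fold at 12 h, hold CCAAT and no E2F-type match in this window, while Cdc6 holds a single E2F-type match, from 138 to 131 bases before the start, and no CCAAT.

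RefSeq's table held such a region for 26 of the 29 genes. A gene with several annotated starts was counted as holding a match where any of them did. An E2F-type match was present for 7 of the 26 (26.9%), against 4.1% of the 4561 genes above the filter with a region and 2.16% of all 27025 genes in the table. CCAAT was present for 16 of 26 (61.5%), against 40.1% and 37.5%. Median GC content was 59.6% for the 26, 60% for the genes above the filter and 52.4% for all. Among the 19 genes with a region and above the filter, the median log2 ratio at 12 h was 0.82 for the 5 with an E2F-type match and 0.56 for the other 14, and 0.79 for the 13 with CCAAT and 0.41 for the other 6. A match is a description of the letters and not a site of binding, and genes without one, Pcna among them for the E2F-type letters, may hold related letters that were not searched.

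For a comparison with a measure of error, the late arrays (12, 18 and 24 h) were set against the early ones (1, 3 and 6 h), 3 arrays each, with limma over all 7370 probe sets above the filter. Arrays of different hours serve as the replicates of a phase in this test, so a gene high at 12 h alone is counted as variable. The late mean was above the early mean for 19 of the 21 genes, with a median log2 difference of 0.34, and for 49.6% of all genes, whose median was 0.00. For 6 genes (Pola2, Rfc1, Rrm1, Rrm2, Tk1 and Uhrf1) all 3 late arrays lay above all 3 early arrays, and 9.28% of all genes were so placed, with none of the 21 the other way (8.04% of all genes). The other probe set of Pola2 above the filter was not so placed, with 123.2 at 24 h and 380.2 at 6 h. Without the 24 h array 13 of the 21 had both remaining late arrays above all early ones, with 14% of all genes.

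None of the 23 probe sets of these genes above the filter passed an adjusted p of 0.05 in limma for late against early, while 0.19% of all probe sets passed upward and 0.0136% downward. At an unadjusted p under 0.05, 7 of the 23 were higher and 0 lower, against 6.13% and 4.6% of all probe sets. Tk1 was nearest to the threshold. Its log2 difference was 0.84 ± 0.15 SE (3 arrays against 3, adjusted p = 0.0642 in limma), and over all settings tried the difference lay between 0.42 and 0.98 and the adjusted p between 0.0641 and 0.365. Rrm2 differed by 0.93 ± 0.27 SE (adjusted p = 0.225 in limma), with early values held up by the floor. Its vehicle and early signals lay about the floor and its late signals carried it past the filter. This difference thus draws on the arrays that let Rrm2 in. So does its place in every count that sets late arrays against vehicle or early ones, the step from 6 to 12 h included. The same holds for the count of genes highest at 12 h. Rrm1 differed by 0.58 ± 0.17 SE (adjusted p = 0.232 in limma) and Uhrf1 by 0.55 ± 0.19 SE (adjusted p = 0.342 in limma).

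Genes whose signal was much lower at 24 h than at 12 h had wider errors. Pcna, with a log2 difference of -1.19 between 24 and 12 h, had a late minus early difference of 0.60 ± 0.33 SE (adjusted p = 0.545 in limma), about as large as that of Rrm1. For Mcm3 it was 0.30 ± 0.24 SE and for Mcm5 0.34 ± 0.25 SE (adjusted p = 0.722 and 0.688 in limma). The differences of Cdc6 (0.22), Fen1 (0.18) and Slbp (0.05) turned below 0 without the 12 h array, to -0.046, -0.030 and -0.19. In these 3 genes the sign of the late difference thus rested on that array. The small differences of Cdc45 (0.09), Mcm2 (0.03) and Mcm7 (0.07) also fell below 0 under some setting or omission, to -0.11, -0.047 and -0.037 at the lowest.

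**Figure D5:**
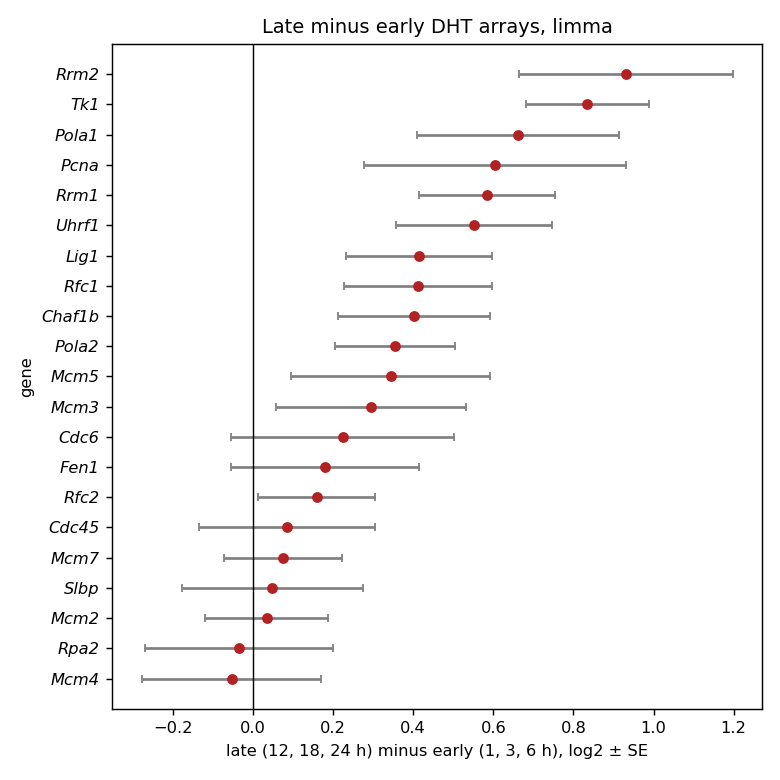
Difference between the mean of the late arrays (12, 18 and 24 h) and the mean of the early arrays (1, 3 and 6 h) on the log2 scale (horizontal axis) with its standard error from limma, for each of the 21 genes. Rrm2 (0.93) and Tk1 (0.84) are farthest above 0, and Mcm4 (-0.05) and Rpa2 (-0.03) lie just below it.

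Against the lone vehicle array, which is assumed to vary like the others, none of the 23 probe sets passed in limma for late or for early DHT, as for all probe sets (0% called in either direction). For late DHT 4 of the 23 (Rrm1, Rrm2, Tk1 and Uhrf1) were higher at an unadjusted p under 0.05, against 6.02% of all probe sets. For early DHT 1 (Rrm1) was, against 2.59%. None of the 23 was lower, against 4.67% for late and 2.02% for early DHT. Rrm2 passed the filter through its late signals, so its place among the 4 draws on the arrays that let it in. The late mean was above vehicle for 19 of the 21 genes (49.5% of all genes) and the early mean for 13 (49%). Rrm1 was 1.22 ± 0.24 SE above vehicle on the log2 scale in the late mean (3 arrays against 1, adjusted p = 0.170 in limma) and 0.64 ± 0.24 SE in the early mean (adjusted p = 0.989 in limma).

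Further genes of these pathways were taken from 4 lists, of 99 names, 77 of them on the array and 60 above the filter. None of the 60 passed an adjusted p of 0.05 for late against early in limma (0.19% of all probe sets passed upward), where 8 were higher and 1 lower at an unadjusted p under 0.05, against 6.13% and 4.6% of all probe sets. Of 19 other replication genes, 16 were above vehicle at 12 h (median log2 ratio 0.27), 11 at 18 h (0.08) and 10 at 24 h (0.05), and 9 were highest at 12 h. Of all genes 51.1%, 48.7% and 51% were above vehicle at 12, 18 and 24 h and 16.1% were highest at 12 h, so the counts at 18 and 24 h were near the share of all genes, and the other lists are to be read against the same shares. Pold2, a subunit of polymerase delta, was at 1508.8, 1643.7 and 1920.4 at 6, 12 and 18 h, against 871.1 on vehicle. Rpa3, the small subunit of the complex that holds Rpa2, was at 454.9 at 12 h, against 213.9 on vehicle. Top2a, the topoisomerase that separates copied chromosomes, was at 401.5 at 12 h and 477.4 at 18 h, its highest, against 190.5 on vehicle.

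Of 21 other genes of nucleotide synthesis and salvage, 15 were above vehicle at 12 h (median 0.25) and 10 at 24 h (-0.02). Nme2, a nucleoside diphosphate kinase, had log2 ratios of 1.09, 1.03 and 0.78 at 12, 18 and 24 h, and late DHT exceeded early DHT by 0.74 ± 0.13 SE (adjusted p = 0.0618 in limma). Dctpp1, which clears unwanted dCTP, was at 0.69, 0.79, 0.93, 0.93 and 0.31 from 3 to 24 h. Dck, the deoxycytidine kinase, was at 0.63, 0.99 and 0.61 at 6, 12 and 18 h, the uridine kinase gene Uck2 at 0.77, 0.91 and 0.61, and Adsl, of purine synthesis, at 0.63, 0.58 and 0.68 at 12, 18 and 24 h.

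Of 11 other genes of chromatin assembly, 8 were above vehicle at 12 h (median 0.38), 9 at 18 h (0.43) and 7 at 24 h (0.20). Hmgb2, a chromatin protein of dividing cells, had log2 ratios of 0.91, 1.23 and 0.83 at 12, 18 and 24 h, whereas the linker histone gene H1f2 was at -0.66, -0.95 and -1.41 at 6, 12 and 18 h. Of 9 regulators of the step from G1 to S, 6 were above vehicle at 12 h (0.09) and 4 at 18 h (-0.05). In that list Ccne1, the cyclin that starts S phase, was at 0.73 and 0.74 at 12 and 18 h, and Ccna2, the cyclin of S and G2, was at 0.41 at 12 h and 1.09 at 18 h.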

How the data were processed

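One array of pooled uterine RNA was run for each of 7 groups, so precision is limited by the number of arrays. Each deposited value is a linear signal intensity. Per the submitters' processing notes it comes from MAS5, whose version is not given in the sources used here. Array medians lay between 227.4 and 237.0. There were 12488 probe sets, 66 of them controls. Of the remaining 12422, 10833 name 1 gene, 396 several and 1193 none in the platform annotation, whose symbols were updated through gene identifiers.

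Signals were raised to the floor of 145.9 (40th percentile) and log2 was taken. Probe sets whose mean log2 signal before that step lay above the floor (7370) were tested with limma 3.58.1 in R 4.3.3, with a variance trend, 4 residual degrees of freedom, a prior of 5.84 and Benjamini-Hochberg adjustment, two-sided. All 7 arrays entered as vehicle, early (1, 3 and 6 h) and late (12, 18 and 24 h) DHT. The procedure was tested on simulated data with independent noise, no change within a phase and shifts larger than the late minus early differences given here. That test does not cover genes whose signal moved within a phase. Ratios at single times were described without a test.

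The 29 genes and the lists were chosen with earlier results of these data known. Genes were named by a rule: members at least 1.5-fold from vehicle at 1 or more times with a signal of at least 291.8 have all 7 signals given, and genes of the other lists are named where they were 1.5-fold from vehicle in the same direction at 2 or more times. Alternatives changed the floor, scaling, filter, fold, probe sets, variance trend and the arrays included.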

Additional observations from a re-analysis of the deposited data

How the results depend on the processing

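The 12 h pattern kept its direction under every setting tried: the median log2 ratio of the genes at 12 h lay between 0.43 and 0.63. Quantile normalization and median centring gave the same counts of genes at least 2-fold higher, highest at 12 h (15) and with late above early (6). Whether they are the same genes was not compared. With a floor at the 20th percentile, the genes at least 2-fold higher numbered 2, 1, 7, 3 and 2 at 1, 6, 12, 18 and 24 h. This floor, a signal of 40.9, also lowered the brightness needed and kept 9873 probe sets in all, against 7370. Counting 1.5-fold in place of 2-fold gave 1, 2, 11, 3 and 1 at those times, and 3-fold gave 1 at 12 h and 0 at 18 h. Averaging all probe sets of a gene, which mixes in dim ones at the floor, gave 1 at 12 h and 0 at 18 h, and 3 genes with late above early. That setting kept 19 of these genes, and Rrm1 was not among them. A floor at the 60th percentile, which only 12 probe sets of these genes passed, gave 8 genes highest at 12 h and a median of 0.021 at 3 h. With a filter on any array, chosen after seeing the data, the medians at 3 and 6 h were 0.028 and 0.0089, and with no filter both were 0.00. Apart from the 1.5-fold counts, no share of all genes is given for these settings, so the counts are not set against a background.

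In limma no probe set of these genes passed the adjusted threshold under any setting. At an unadjusted p under 0.05, the probe sets higher late than on vehicle, 4 as reported, numbered 7 with the floor at the 20th percentile and 2 with the 60th, with averaged probe sets, with no filter and with the filter on any array. Those higher early than on vehicle numbered 2 with the floor at the 20th percentile and 0 with averaged probe sets. The number of probe sets of these genes that entered the test also differed, so the counts have no common base. It was 23 as reported, and 32 and 12 with the floor at the 20th and 60th percentile. It was 19 with averaged probe sets, 36 with no filter and 28 with the filter on any array. The causes were not tested. Leaving out 1 array at a time gave 4 to 9 probe sets higher late than early (4 without the 3, 12 or 18 h array) and 2 to 6 higher late than on vehicle (2 without the 12 or 18 h array). The count with late above early ranged from 6 to 13 (without the 24 h array) over such omissions, a check added after seeing the data. Late minus early differences over such omissions ranged from -0.046 to 0.427 for Cdc6, -0.030 to 0.343 for Fen1 and -0.189 to 0.258 for Slbp, below 0 only without the 12 h array. No paired analysis was possible because each group had 1 array.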
